A study of Homo sapiens with 7 samples.

Results

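The peaks described here lay at the chromosome ends. They were the CTCF peaks on chromosomes 1 to 22 whose centre fell within 1 Mb of the first or last sequenced base of hg19, without the short-arm ends of chromosomes 13, 14, 15, 21 and 22. Of the 33094 peaks of control cells 771 met this rule, as did 811 of the 32917 peaks of PDS-treated cells, and the rest of the same chromosomes held 31539 and 31383 peaks, respectively. The 39 ends comprised 38.05 Mb of sequence and the rest 2642.01 Mb. The rule used position only, so the number of peaks and their other properties could be compared.

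The study asked how stabilization of G-quadruplexes (G4s) changes CTCF occupancy in K562 cells, an established erythroleukemia line. Control cells were untreated and contributed 2 CTCF and 1 IgG ChIP-seq samples, whereas PDS-treated cells received 10 μM pyridostatin (PDS) for 24 h and contributed 2 CTCF and 2 IgG samples. Both replicates of a condition entered a single peak call against IgG. Whether the control call used more than the 1 IgG sample analysed here is not known, so neither is the number of IgG samples behind the control folds and their ranks. Each of the 2 deposited lists states, per peak, the fold enrichment over the IgG of its condition and a p-value. Read counts and values per replicate were not among the columns, so depth is unknown, no SD can be given, and the intervals below cover counting error only. Neighbouring peaks are not independent, which makes those intervals too narrow. Folds of the 2 lists rest on different IgG samples, so peaks were compared by rank within a list, rank 1 being the highest fold.

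CTCF is a zinc-finger protein that shapes chromatin loops and insulates neighbouring genes from each other, and its binding motif is long and rich in G and C. Subtelomeres, the stretches next to the telomere repeats, are gene rich in many chromosomes and end in segments that have been copied between chromosomes, where short reads often match several places. The telomere repeat itself can fold into G4s, four-stranded structures of stacked guanines, and PDS is a ligand of the folded form.

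The sequences below carry the patterns reported in the following paragraphs. The first set shows matches to the CTCF consensus, which was the ChIP-exo consensus of 15 letters given in the introduction of the paper, searched on both strands, with the match in capitals and 20 bases of hg19 on either side in lower case. They were chosen because they lie in outermost peaks, in peaks of the highest fold or at the genes named below.
12p beside DDX11L8, chr12:94351-94405, plus strand: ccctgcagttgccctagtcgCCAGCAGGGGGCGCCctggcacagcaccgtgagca
2q outermost peak, chr2:243153819-243153873, minus strand: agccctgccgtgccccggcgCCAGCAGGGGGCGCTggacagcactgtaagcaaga
14q outermost control peak, chr14:107287597-107287651, minus strand: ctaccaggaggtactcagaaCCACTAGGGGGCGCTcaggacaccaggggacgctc
20p outermost peak, chr20:118535-118589, minus strand: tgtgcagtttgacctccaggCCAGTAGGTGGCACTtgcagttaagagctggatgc
16p NPRL3 intron, chr16:147038-147092, minus strand: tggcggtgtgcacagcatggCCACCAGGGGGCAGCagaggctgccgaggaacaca
3q IQCG intron, chr3:197633003-197633057, plus strand: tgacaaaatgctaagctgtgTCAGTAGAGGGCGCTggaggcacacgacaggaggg
19p near MISP, chr19:770401-770455, plus strand: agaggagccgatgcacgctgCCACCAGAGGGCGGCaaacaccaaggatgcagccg
19p downstream of ELANE, chr19:857139-857193, plus strand: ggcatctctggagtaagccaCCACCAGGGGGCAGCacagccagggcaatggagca

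The second set shows G4 motifs, meaning 4 runs of G, each 3 G or longer, separated by 1 to 7 nt and searched for on both strands, with the runs of G in capitals. In the RNH1 sequence the last 7 G in capitals count as 2 runs of 3 G with 1 G between them. The sequences lie in outermost peaks, in a peak with one of the smallest p-values and at named genes. Both motifs are letters in the reference and not measured sites.
20q outermost peak, chr20:62948095-62948121, plus strand: GGGGcGGGGcgcggcGGGGGcgcGGGG
1q outermost peak at PGBD2, chr1:249200782-249200801, plus strand: GGGGtGGGtGGGGaccaGGG
3q outermost peak, chr3:197807120-197807147, plus strand: GGGGctgcGGGGctgcGGGGaagccGGG
11p peak near RNH1, chr11:518892-518909, plus strand: GGGaccGGGGcGGGGGGG
16p AXIN1 start, chr16:402726-402748, plus strand: GGGGGcGGGGccGGGGcgcGGGG
19p CFD intron, chr19:862048-862068, plus strand: GGGcccaGGGaaGGGGcGGGG

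CTCF peaks were denser at the ends than in the rest of the same chromosomes, and less dense than the rest once both were pooled over bands of equal GC content. Control cells had 20.3 peaks per Mb in the ends against 11.9 in the rest, a Mantel-Haenszel ratio within chromosomes of 1.53 (95% interval 1.42 to 1.64), and the ends were denser in 19 of 22 chromosomes. PDS-treated cells had 21.3 against 11.9 peaks per Mb, a ratio of 1.59 (1.48 to 1.70), again with 19 of 22 chromosomes in this direction. The ends had a median GC content of 48.2%, from 36.9 to 57.4%, compared with 40.2% for the 2650 tiles of 1 Mb in the rest, and they held 17.3 protein-coding genes per Mb against 7.03. When ends were compared with tiles of the same GC content in bands of 2.5 percentage points, the ratio was reversed, at 0.732 (0.680 to 0.789) for control and 0.697 (0.649 to 0.750) for PDS peaks. Here the GC bands replaced the chromosome strata, so ends were set against tiles of all chromosomes. This ratio did not allow for the share of unique 50-mers, which was 84.7% in the ends and 92.6% in the rest. Per base of unique sequence, defined by 50-mers found once in the genome, the ratios within chromosomes were 1.67 and 1.74. The length of 50 follows the labels, which give single reads of 50 bp, whereas the methods describe paired-end libraries. Every unique share below rests on this length and would be the same or larger for longer reads.

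**Figure D1:**
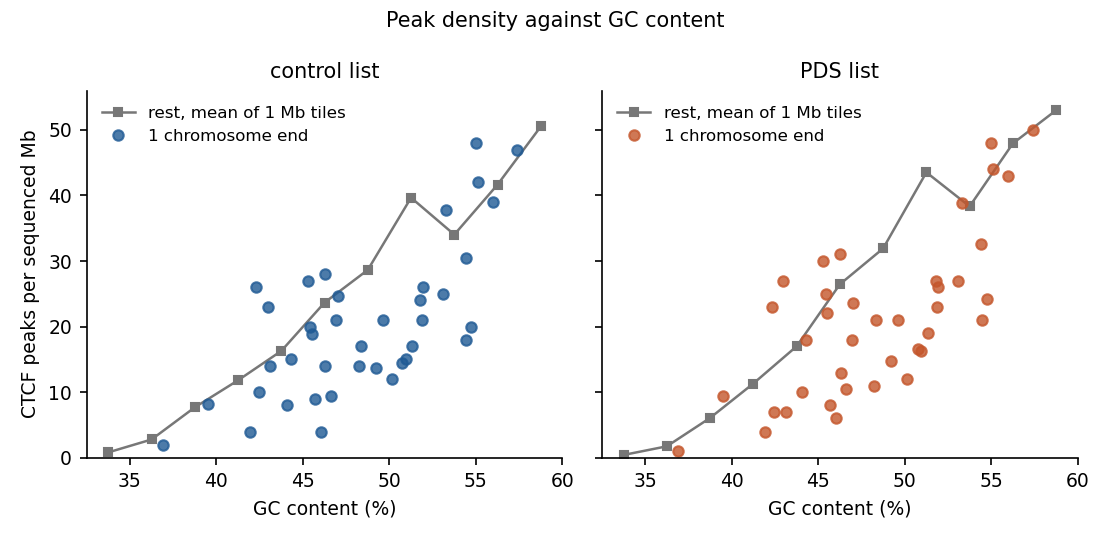
CTCF peaks per sequenced Mb (vertical axis) against GC content in percent (horizontal axis), for each of the 39 ends (circles) and for the mean of the 1 Mb tiles of the rest in bands of 2.5 percentage points (squares and line), with the control list on the left and the PDS list on the right. Between 45 and 52.5% GC most ends fell under the line of the rest, whereas the few ends above 55% lay near it.

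The difference varied between the bands. Between 42.5 and 55% GC the ends had fewer peaks per Mb than the rest in every band of both lists. At 47.5 to 50% GC the 4 ends had 16.5 control peaks per Mb and the 128 tiles of the rest 28.7, and at 50 to 52.5% GC the 7 ends had 18.7 and the 62 tiles 39.7. The 3 ends at 55 to 57.5% GC held 42.7 control peaks per Mb, and the 10 tiles of the rest 41.7, both being few. In the PDS list the same bands gave 17.0 against 31.9, 20.1 against 43.5 and 45.7 against 47.9 peaks per Mb. At low GC content the ends were few and not below the rest throughout. At 35 to 37.5% GC the single end lay below the rest, with 2 control and 1 PDS peak per Mb against 2.80 and 1.76. The single end at 37.5 to 40% GC had 8.24 control and 9.41 PDS peaks per Mb against 7.70 and 6.09 in the rest, and the 3 ends at 40 to 42.5% GC had 13.3 and 11.3 against 11.8 and 11.3. Across the 39 ends, which share their libraries and, in part, their chromosomes, the Spearman correlation of peak density was 0.612 with GC content and 0.625 with the number of coding genes for control peaks, and 0.644 and 0.650 for PDS peaks.

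Single ends ranged widely. The densest were 19p with 48 control and 48 PDS peaks, 16p with 47 and 50, and 11p with 42 and 44, each over 1 Mb of sequence. These ends hold 35, 46 and 48 coding genes in the order 19p, 11p and 16p, and their GC content was 55.0, 55.1 and 57.4%. At the other extreme, 3p held 2 control peaks and 1 PDS peak and 1 coding gene start at a GC content of 36.9%, 4q held 4 peaks in each list and 8p 4 control and 6 PDS peaks. The density exceeded that of the rest of the same chromosome at 28 ends and fell below it at 11 in either list. On chromosome 19, whose rest was the densest with 30.3 control peaks per Mb, the 2 ends differed, since 19p lay above the rest and 19q, rich in zinc-finger genes, below it with 17 control and 21 PDS peaks.

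**Figure D2:**
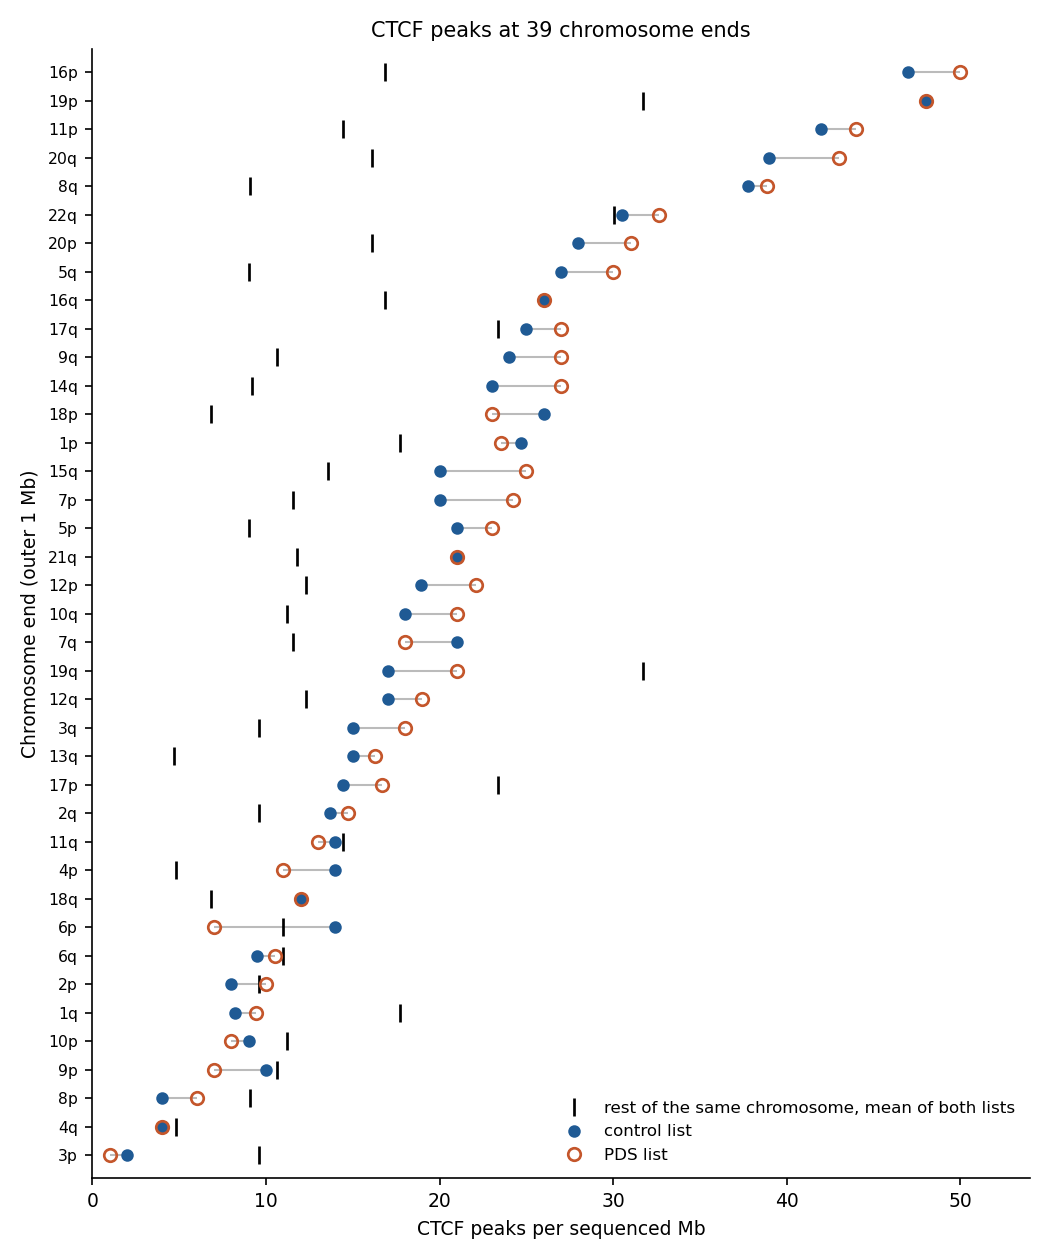
CTCF peaks per sequenced Mb (horizontal axis) in the outer 1 Mb of each of the 39 chromosome ends (vertical axis) for the control list (filled circles) and the PDS list (open circles), with the density of the rest of the same chromosome as a vertical tick. The ends ran from 3p with 1 or 2 peaks to 16p and 19p with 47 to 50, and 6p showed the widest gap between the lists.

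The order of the ends was nearly the same with and without PDS, with a Spearman correlation of 0.960 between the counts of the 2 lists, a description over 39 ends. The PDS list had more peaks at 25 ends, the control list at 9, and 5 ends had equal numbers. The largest shortfall in the PDS list was at 6p, the extreme of 39 ends, where 14 control peaks faced 7 PDS peaks. There 8 of the 14 control peaks (57.1%) had no PDS counterpart, against 14.7% over all ends and 21.9% over chromosomes 1 to 22. The difference was not tested. Of the 8 control-only peaks of 6p, 3 lay in or within 5 kb of DUSP22, a phosphatase gene of MAP kinase signalling, which had no PDS peak. These 3 peaks were weak by fold, the strongest of them ranking 21821 of 33094.

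Peaks were sparser in the outer 200 kb than further in, where the density varied without a steady trend. The rest had 11.9 per Mb in both lists, and of the intervals below only the outermost 50 kb fell under that in both. The outermost 50 kb held 13 control and 14 PDS peaks, or 6.76 and 7.28 per Mb, and the next 50 kb 22 and 24 peaks, or 11.7 and 12.8 per Mb. From 100 to 200 kb the density was 13.2 per Mb in both lists and from 200 to 300 kb it was 23.1 and 25.8 per Mb. It was lower at 400 to 500 kb, with 17.9 and 18.5 per Mb, and at 500 to 600 kb, with 19.3 and 20.3 per Mb, and between 600 and 700 kb it was 25.5 and 26.0 per Mb. It was 23.1 and 25.04 per Mb from 1.5 to 2 Mb and was 18.0 and 18.9 per Mb from 2 to 3 Mb, so that 1 Mb marked no step. The share of 50-mers found once in the genome was also lower in the outer 200 kb. It was 44.2% in the outermost 50 kb, 59.5% in the next 50 kb and 76.9% at 100 to 200 kb. At 200 to 300 kb it was 87.5%. Further in it did not follow the density, being 90.4% at 400 to 500 kb, 93.6% at 1.5 to 2 Mb and 93.9% at 2 to 3 Mb. GC content was 45.1% in the outermost 50 kb, 47.8% at 200 to 300 kb, 49.3% at 1.5 to 2 Mb and 47.4% at 2 to 3 Mb. The part of either in the profile was not tested.

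**Figure D3:**
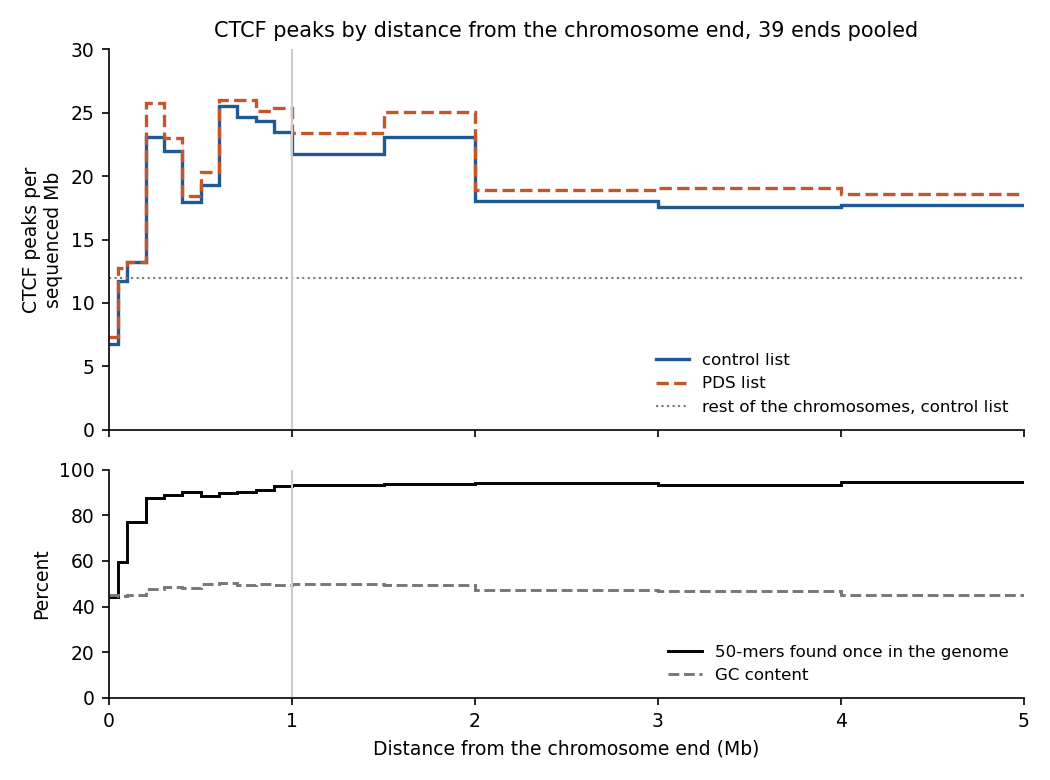
Upper panel, CTCF peaks per sequenced Mb by distance from the chromosome end in Mb, pooled over 39 ends, for the control list (solid) and the PDS list (dashed), with the density of the rest as a dotted line and the 1 Mb limit as a vertical line. Lower panel, share of 50-mers found once in the genome and GC content in percent over the same distances. Density and the share of unique 50-mers were lowest in the outermost 100 kb, whereas GC content was near 45% in the outer 200 kb, between 49.3 and 50.1% from 0.5 to 2 Mb, and 45.1% again at 4 to 5 Mb.

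Most of the peaks themselves lay in unique sequence. Fewer than 50% of the sampled 50-mers touching the peak were unique at 1 of the 771 control peaks and 3 of the 811 PDS peaks, and the median was 100% in both lists. In the outermost 50 kb this applied to 1 of 13 control peaks (7.69%) and 2 of 14 PDS peaks (14.3%), which were the 2q peak of both lists and the 12p peak described next. Per the methods, reads that mapped to several places or had a mapping quality under 30 had been removed. The peak at chr12:94351-94450, 34.4 kb from the end of 12p and within 1 kb of the start of DDX11L8, a member of a gene family copied next to many telomeres, was found in the PDS list only. Its fold of 41.6 was the highest of all PDS-only peaks in the ends, with rank 709, although its p-value ranked 30568. It holds the first consensus match shown above, and those 55 bases occur at 5 places on chromosomes 1 to 22, all of them in ends (1p, 9p, 12p, 15q and 16p), and of these 5 copies only that of 12p had a peak. Of the 50-mers at this peak 35.7% were unique.

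The outermost 2q peak also lay in copied sequence. The peak at chr2:243153721-243153960, 35.5 kb from the end of 2q, had a fold of 162 in the control list, with rank 19 and the second highest of any end, and a fold of 35.4 in the PDS list, with rank 1518. Its 55 bases have 1 further copy, at chr2:114361753-114361807, 22998 bp from RABL2A, in the region where ancestral chromosome ends are fused within human chromosome 2. That copy had a PDS peak and no control peak. Unique 50-mers made up 34.4% of those at the 2q peak of control cells and 29.6% at that of PDS-treated cells. The assignment of reads between such copies was not tested.

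Several outermost peaks lay very close to the last sequenced base. Nearest to an end was a PDS-only peak at chr11:134945601-134945850, 0.790 kb from the last base of 11q, with a fold of 21.1, rank 9652 and 96.97% unique 50-mers. On 18q the peak at chr18:78015781-78015960 lay 1.38 kb from the end and was shared, with rank 6096 in the control and 24176 in the PDS list. On 14q the outermost control peak, at chr14:107287501-107287680, lay 1.95 kb from the end, had 2 consensus matches and no PDS counterpart, and the outermost PDS peak there lay 8.56 kb from the end and was shared. The outermost peaks of 2p and 4q, at 8.90 and 11.7 kb in the control list, were shared too, the latter 25363 bp from DUX4, the gene of the D4Z4 repeat. On 17p the outermost peak of the PDS list, at 13.4 kb, had no control counterpart. Over all ends the outermost peak lay at a median of 117 kb in the control list and 84.0 kb in the PDS list, with the farthest at 704 and 795 kb on 1p, where 32.1% of 50-mers were unique.

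Telomere-like repeats were near few peaks. A run of 2 TTAGGG units in a row, on either strand, lay within the central 200 bp of no end peak in either list, which allows a share of up to 0.389% of 771 control and 0.370% of 811 PDS peaks, the limits set by 3 counts, and such a run was present in 0.0836% of the 200 bp windows tiling the ends against 0.00378% of those sampled in the rest. Within 1 kb of a peak it was found at 6 of 771 control peaks (0.778%, 0.357 to 1.69%) and 10 of 811 PDS peaks (1.23%, 0.671 to 2.25%), compared with 0.0888% and 0.0860% of the peaks of the rest. Of the 39 ends 12 carry at least 100 bp of this repeat in their outer 10 kb in hg19.

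Fewer control peaks lacked a PDS counterpart at the ends than in the rest of the same chromosomes. In the control list 113 of 771 end peaks (14.7%) had no overlapping PDS peak, where the background over chromosomes 1 to 22 was 21.9%, and the odds ratio against the rest was 0.661 (0.540 to 0.809), with a lower share at the ends in 17 of 22 chromosomes. Within bands of GC content the odds ratio lay on the other side of 1 and did not leave it out, at 1.07 (0.866 to 1.32). In the PDS list 150 of 811 end peaks (18.5%) had no overlapping control peak, where the background was 21.4%, and the odds ratio of 0.863 (0.721 to 1.03) did not leave out 1. It became 0.797 (0.662 to 0.959) within GC bands. The PDS value turned to 1.38 (1.10 to 1.73) when a counterpart within 1 kb was accepted, and PDS-only peaks with a shared peak within 1 kb made up 37.3% of 150 at the ends against 52.6% of 6740 in the rest.

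Peaks found in 1 list only were narrow and weak, at the ends as in the rest. At the ends their median width was 180 bp in the control list and 100 bp, the smallest width listed, in the PDS list. Shared end peaks had median widths of 360 and 350 bp. List-only peaks of the rest also had median widths of 180 and 100 bp. At the ends, 7 of 113 control-only and 1 of 150 PDS-only peaks belonged to the 50% of their list with the smallest p-values. This compared with 61.6% of 658 and 65.4% of 661 shared end peaks. In the rest, 820 of 6955 control-only (11.8%) and 76 of 6740 PDS-only peaks (1.13%) did. The strongest control-only peaks by fold lay on 1p, at chr1:714121-714360 with rank 2137 and in SAMD11 at chr1:875701-875940 with rank 3517. Besides the 12p peak, the strongest PDS-only peak was at chr2:242818051-242818200 near RTP5, a receptor-transporter family gene, with rank 5301.

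Shared peaks of the 2 lists were alike in p-value rank and less so in fold. Of the shared peaks 646 paired with exactly 1 peak of the other list. The Spearman correlation across these pairs was 0.8499 for p-value ranks and 0.421 for folds, given as descriptions because the peaks share libraries. The PDS peak was wider in 315 pairs, the control peak in 302, and 29 had equal widths, the widths being multiples of different steps in the 2 lists. On a scale where 50 is the median of a whole list, the median fold percentiles of end peaks in the control and the PDS list were 58.6 (54.7 to 61.7) and 45.1 (42.1 to 49.5). By p-value the medians were 53.3 (49.4 to 56.9) and 53.5 (49.9 to 57.5).

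**Figure D4:**
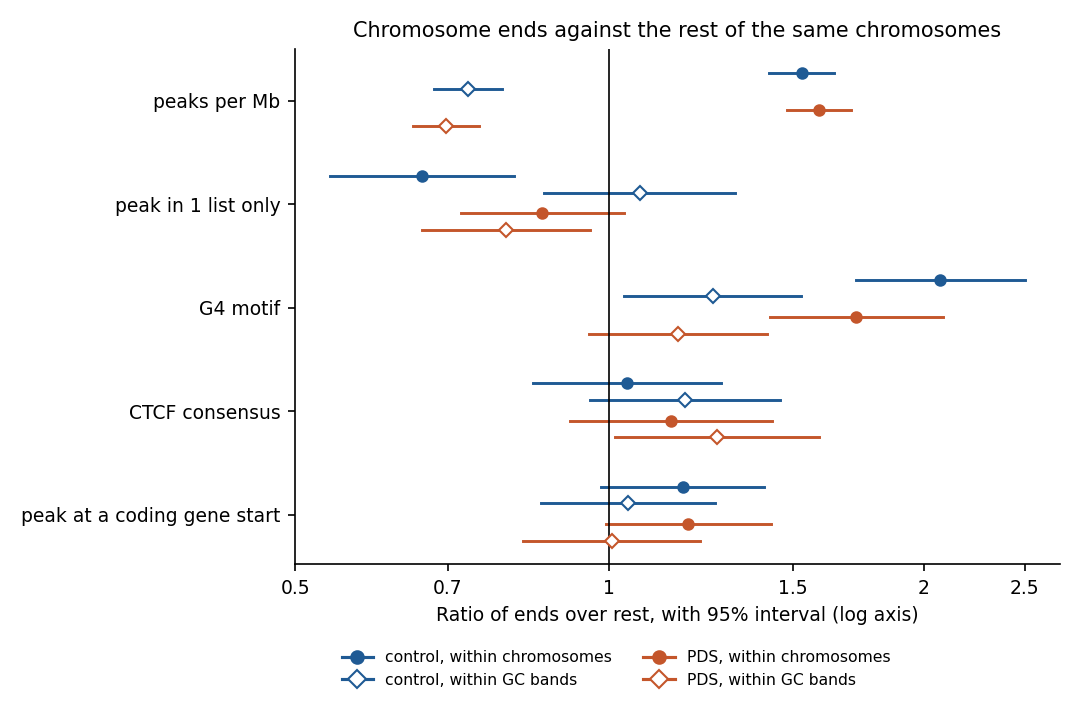
Ratio of chromosome ends over the rest on a log axis, with 95% intervals, for peaks per Mb (rate ratio) and 4 properties (odds ratios), in the control list (blue) and the PDS list (orange), within chromosomes (filled circles) and within bands of GC content (open diamonds). Peak density changed sides of 1 with the GC bands, and G4 motifs moved from 2.08 and 1.72 to 1.26 and 1.16.

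G4 motifs were more frequent in end peaks than in peaks of the rest. In the control list 145 of 771 end peaks (18.8%) had a G4 motif in their central 200 bp against 9.41% of the rest, an odds ratio of 2.08 (1.72 to 2.502) with 17 of 22 chromosomes in this direction. In the PDS list the share was 135 of 811 (16.6%) against 9.89%, with an odds ratio of 1.72 (1.43 to 2.09) and 15 of 22 chromosomes. The sequence of the ends is itself rich in these motifs, present in 6.91% of all 200 bp windows of the ends and 2.51% of the windows sampled in the rest. Within bands of GC content around the peak the odds ratio fell to 1.26 (1.03 to 1.53) in the control list and 1.16 (0.956 to 1.42) in the PDS list, where it no longer left out 1. In ends of 0.5 Mb it was 1.73 (1.28 to 2.33) in the control list. There the PDS list gave 1.33 (0.970 to 1.82), which did not leave out 1 either. Among end peaks, motifs were found in 130 of 658 shared control peaks (19.8%) and 15 of 113 control-only peaks (13.3%), and in 119 of 661 shared PDS peaks (18.0%) and 16 of 150 PDS-only peaks (10.7%). In the rest the shares were 10.5% of shared and 5.52% of control-only peaks, and 10.7% of shared and 6.94% of PDS-only peaks. The difference between shared and list-only peaks was not tested. The end with the most peaks with a motif was 16p, with 16 in the control and 18 in the PDS list. Just inward of the ends, at 1 to 1.5 Mb, 22.4% of control and 18.2% of PDS peaks had a motif. At 1.5 to 2 Mb the shares were 18.2 and 15.6%. Within the ends they were 7.69 and 7.14% in the outermost 50 kb and 27.8 and 24.7% at 900 to 1000 kb.

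The frequency of the CTCF consensus in peaks did not pass the test between ends and rest within chromosomes. It was present in 108 of 771 control peaks (14.01%) against 13.4% in the rest, an odds ratio of 1.04 (0.845 to 1.28), and in 91 of 811 PDS peaks (11.2%) against 9.66%, an odds ratio of 1.15 (0.916 to 1.43). The share was higher at the ends in 11 and lower in 11 chromosomes for control peaks, and 9 and 13 for PDS peaks. Within bands of GC content the odds ratios were 1.18 (0.958 to 1.46) in the control and 1.27 (1.01 to 1.59) in the PDS list. The direction turned when whole peaks were searched, to 0.885 (0.727 to 1.08) and 0.966 (0.790 to 1.18), and neither interval left out 1. Windows of 200 bp held the consensus in 0.302% of cases in the ends and 0.129% in the rest. Shared end peaks had it in 15.2% (control list) and 13.2% (PDS list), compared with 8 of 113 control-only and 4 of 150 PDS-only peaks. In the rest it was found in 14.2% of shared and 10.3% of control-only peaks, and in 11.7% of shared and 2.27% of PDS-only peaks. The 14q end, which lies in the immunoglobulin heavy chain locus and has no coding gene start in the annotation used, held the most matches, with 1 or more in 12 of 23 control and 10 of 27 PDS peaks. Over whole peaks, matches read toward the chromosome end at 48 control peaks and away from it at 72, and at 47 and 68 PDS peaks. These counts include peaks of 14q. Orientation was not counted in the rest, and the difference was not tested.

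Many end peaks lay at genes. Coding gene starts accounted for 150 of 771 control end peaks (19.5%, 16.8 to 22.4%) against 11.9% of the rest, and for 138 of 811 PDS end peaks (17.0%, 14.6 to 19.8%) against 11.5%. Seen from the genes, the difference was smaller. Of the 660 coding genes that start in an end 171 (25.9%) had a control peak within 1 kb of the start against 22.7% of the 18563 in the rest, an odds ratio of 1.18 (0.982 to 1.41), and 162 (24.5%) had a PDS peak against 21.4%, an odds ratio of 1.19 (0.992 to 1.43). Neither interval left out 1, although both did so for peaks within 5 kb, at 1.19 (1.01 to 1.39) and 1.18 (1.003 to 1.38). Within bands of GC content the odds ratios for peaks within 1 kb were 1.04 (0.859 to 1.26) and 1.01 (0.827 to 1.22). A start peak was present in both lists at 150 of the 660 genes, in the control list only at 21 and in the PDS list only at 12. In the rest the corresponding counts were 3669, 546 and 303 of 18563 genes, and the difference was not tested. G4 motifs were most common in the peaks at gene starts, in 35.3% of those of the control list and 31.2% of those of the PDS list. In the rest, too, peaks at gene starts had the largest share, 24.2 and 23.1%.

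Among the strongest end peaks by fold, the control list was led by a peak at the start of TIMM22 on 17p, a subunit gene of the mitochondrial inner membrane translocase, at chr17:899761-900060 with a fold of 175 and rank 13. The 2q peak described above came next, followed by a peak in an intron of IQCG on 3q, a gene of cilia and flagella, at chr3:197632921-197633280 with a fold of 150 and rank 29. The PDS list was led by a peak near MISP on 19p, a gene of an actin-binding protein of the mitotic spindle, at chr19:770301-770800 with a fold of 86.8 and rank 14. A peak near NARF on 17q, at chr17:80452551-80453000, had rank 29 and one in an intron of NPRL3 on 16p, at chr16:146701-147250, had rank 50. All 6 of these peaks were shared. By p-value the leading control peak of the ends lay near RNH1 on 11p, a ribonuclease inhibitor gene, at chr11:518521-519180 with a p-value of 2.69e-49, and its G4 motif is among those shown above.

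Genes near the ends were also counted by function, with a peak assigned to a gene when it lay in the gene or within 5 kb of it. Of all 660 coding genes that start in an end 435 (65.9%) had a control peak and 429 (65%) a PDS peak by this reach, which is the background for the coding genes that follow. Of the 1256 other annotated genes of the ends, which do not code for a protein, 302 (24.0%) had a control peak and 322 (25.6%) a PDS peak. Among the coding genes the share was larger for longer ones, a description with no test. It was 47.9% among the shortest 25% and 79.4% among the longest 25% in the control list, and 49.1 and 77.6% in the PDS list. The lists hold 107 genes that start in an end, of which 84 code for a protein. Of those 84 genes 60 (71.4%) had a control peak and 59 (70.2%) a PDS peak, near the background. The lists were chosen with earlier results of these data known, and nothing particular to a list is read from its count. Because neighbouring genes can share a peak, the counts describe genes and not independent events.

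**Figure D5:**
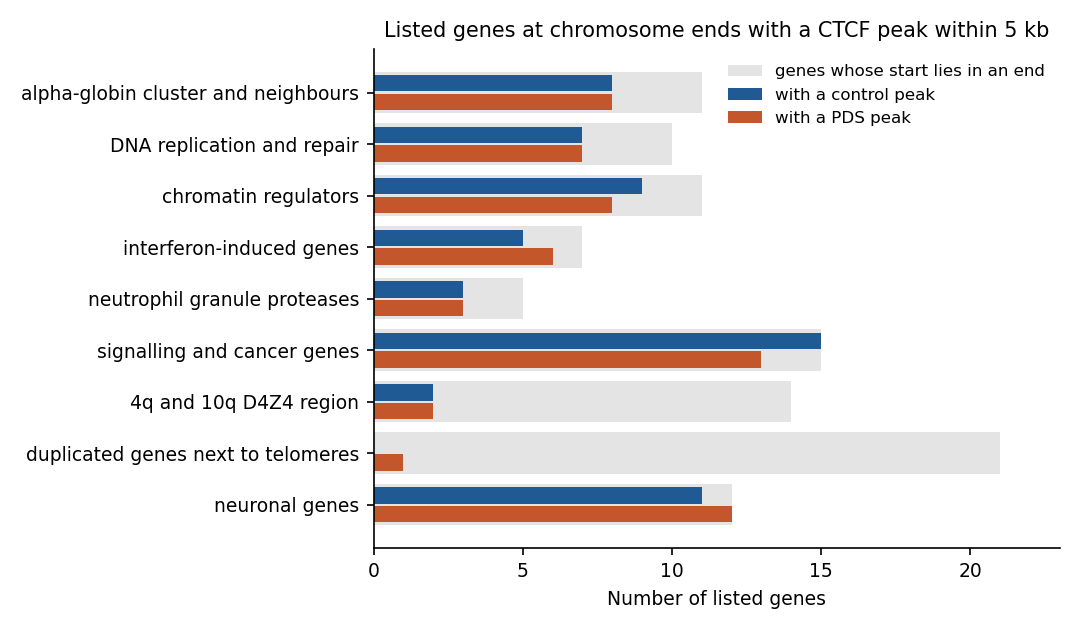
Number of listed genes (horizontal axis) in 9 groups (vertical axis) whose start lies in a chromosome end (grey), with a control peak (blue) or a PDS peak (orange) in the end, in the gene or within 5 kb of it. The backgrounds are 65.9% (control) and 65% (PDS) for coding genes of the ends and 24.0 and 25.6% for the other genes, to which most of the D4Z4 list (2 of 14 with a peak, 1 of them TUBB8 of 10p, outside the D4Z4 regions) and of the duplicated genes (1 of 21) belong.

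The list of the alpha-globin cluster of 16p, which is expressed in erythroid cells, and its neighbours had peaks at 8 of 11 genes (72.7%) in both lists. All of the control peaks were shared, whereas 3 PDS peaks at NPRL3 and 1 at AXIN1 were in the PDS list only. Over all end peaks 14.7% of control and 18.5% of PDS peaks were in 1 list only. Of the 5 globin genes 3 had a peak, HBZ, HBA1 and HBQ1, and the other 5 of the 8 were the neighbours NPRL3, LUC7L, MPG, RHBDF1 and AXIN1. NPRL3, whose introns hold the enhancers of the cluster, had 4 control and 7 PDS peaks within this reach. The strongest, at chr16:146701-147250, had rank 50 in the PDS and 2086 in the control list and holds the NPRL3 sequence shown above. At the start of HBQ1, a theta-globin gene, and just beyond it lay peaks with no consensus match, at chr16:229981-230940 and chr16:231301-231960 in the control list, both with G4 motifs and PDS counterparts, and they also fell within 5 kb of HBA1. HBM and HBA2 had none within 5 kb. AXIN1, a gene of the Wnt pathway further inward, had a peak at its start with a fold of 122 (rank 94) in the control and 59.6 (rank 98) in the PDS list, over the G4 motif shown.

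Among genes listed under DNA replication and repair 7 of 10 (70%) had a peak in each list, near the background for coding genes of the ends, 1 of them SDHA, which codes for a mitochondrial dehydrogenase subunit. RECQL4, a helicase gene on 8q, had 3 control and 5 PDS peaks, 2 of the latter in the PDS list only. A peak it shares with MFSD3 ranked 132 by fold among control and 17644 among PDS peaks, where its p-value was the smallest of all end peaks (p-value rank 45). By contrast, RTEL1, a helicase gene of telomere maintenance on 20q, had no peak in either list. TRIP13, a checkpoint gene on 5p, had a control-only peak of low fold at its start (rank 32880), which it shares with BRD9, a subunit gene of a chromatin remodelling complex. NCAPG2, a condensin gene on 7q, had 2 control-only peaks around its start (ranks 24148 and 25728).

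Genes listed as chromatin regulators had a control peak in 9 of 11 (81.8%) and a PDS peak in 8 of 11 cases (72.7%). Their median length was 64.3 kb, compared with 15.8 kb for all coding genes of the ends, and among the longest 25% of those genes 79.4 and 77.6% had a peak. ANKRD11 on 16q had 5 control and 4 PDS peaks, of which 3 were shared. PRDM7 on 16q carried the outermost peak of that end, with rank 552 in the control and 3433 in the PDS list. TRIM28 and KDM5A had none.

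Genes listed as interferon-induced had a control peak in 5 of 7 and a PDS peak in 6 of 7 cases. The list includes IFITM5, a gene of bone-forming cells, and IRF4, a transcription factor gene of lymphocytes, which had peaks in both lists and are known for other roles than the list's name states. At ISG15 on 1p the peak at chr1:936961-937800 had p-value rank 90 in the control list and its PDS counterpart rank 107. IFITM1 on 11p had 2 control and 4 PDS peaks, the 2 additional ones being found in the PDS list only. IRF7 had none. The serine protease genes of 19p, most of which belong to neutrophil granules, had a peak in 3 of 5 cases in both lists. These were ELANE, CFD and GZMM, whereas the neutrophil granule genes AZU1 and PRTN3 had none. All peaks counted for ELANE were also counted for CFD. A peak in CFD at chr19:861781-862140 had a fold of 117 and rank 113 in the control list and rank 3423 in the PDS list, and the peak downstream of ELANE, the neutrophil elastase gene, had ranks 2378 and 6727.

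The list of signalling and cancer genes had a control peak at 15 of 15 and a PDS peak at 13 of 15 genes. DUSP22 and RACK1 were those without a PDS peak. The background over all coding genes of the ends was 65.9 and 65%. The list includes TBP, TUBB3 and MC1R, so its name does not describe every member. FLT4, a receptor gene of lymphatic vessel growth on 5q, had a peak at chr5:180038221-180038460 with a fold of 119 and rank 108 in the control list and rank 3681 in the PDS list. HRAS had 1 shared peak with G4 motifs, of ranks 23273 and 8303. Genes listed as neuronal had a peak in 11 and 12 of 12 cases. They were long, with a median of 136 kb. The list includes SOX18, a transcription factor gene of blood and lymph vessels, and PCSK6, a protease gene, which are not neuronal genes. SHANK3, a synaptic scaffold gene on 22q, had 3 shared peaks, the outermost of which, at chr22:51170641-51170940, was also the outermost of 22q. CHL1 on 3p had a single peak, found in the PDS list only, with rank 12390.

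Most of the listed genes in copied sequence next to the telomeres do not code for a protein, so their counts stand beside both backgrounds. Of 14 genes of the D4Z4 list 2 had a peak in each list, and 1 of these, TUBB8 on 10p, lies at the other end of chromosome 10 from the D4Z4 repeats. Among the 13 genes of 4q and 10q a peak was found at 1 of the 4 that code for a protein, beside 65.9 and 65% of coding genes, and at none of the 9 others, beside 24.0 and 25.6%. The genes with a peak were FRG1 on 4q, a neighbour of the D4Z4 repeat, with a peak at its start (ranks 146 and 722) and TUBB8, an oocyte tubulin gene, with a peak at its start (ranks 1542 and 19915), whereas DUX4 and its copies, 9 genes, had none within 5 kb. Of 21 genes of the families DDX11L, WASH, OR4F, FAM138 and others only DDX11L8 had one, the PDS-only peak described above. None of the 8 coding genes among them and 1 of the 13 others thus had a PDS peak, and none of the 21 a control peak. Little of the sequence at these genes is unique. Of the 50-mers in the gene and 5 kb on either side a median of 1.12% were unique for DUX4 and its copies, 3.37% for the 13 genes of 4q and 10q and 11.8% for the 21 genes, compared with 93.8% for all coding genes of the ends. Reads mapped to several places had been removed, and the part of this in the counts was not tested. In the outer 100 kb as a whole 35 control peaks lay at 19 ends and 38 PDS peaks at 20 ends, and 30 peaks of each list were shared.

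Peaks lay close to the 1 Mb limit on either side. Just inside it lay a shared peak on 11p at 999.99 kb in the control list (fold 27.8) and at 999.975 kb in the PDS list (fold 20.0), and a PDS-only peak on 17q at 999.959 kb (fold 8.57). Just outside it were peaks on 5p, at 1000.46 kb with a fold of 9.03 in the control list and at 1000.6 kb with a fold of 12.5 in the PDS list, and on 17q, at 1000.8 kb with a fold of 67.4 and at 1000.68 kb with a fold of 18.6.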

How the data were processed

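CTCF and IgG ChIP-seq of K562 cells gave 1 deposited peak list per condition. Per the methods and the submitters' processing notes, the authors mapped reads to hg19 with Bowtie2 2.2.3, removed duplicates, reads mapped to several places and those with a mapping quality under 30 with SAMtools, and called peaks with PePr in windows of 100 bp. deepTools 2.0 served for tracks not used here. The labels give single reads of 50 bp and the methods paired-end libraries, and the unique 50-mers follow the labels. The deposited score of each peak, as the authors wrote it, was read and not analysed. The fold enrichment over IgG and the p-value of each peak are the authors' deposited PePr output. The methods name a p-value limit of 0.05, whereas the largest deposited p-values were 9.997e-06 in both lists. The adjusted p-value column was not used.

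Ends were compared with the rest by Mantel-Haenszel ratios stratified by chromosome, with 95% intervals. A result counted as different where its interval left out 1. A peak was shared when it overlapped a peak of the other list by at least 1 bp. Motifs were searched in the central 200 bp of a peak, and GC around a peak was taken 500 to 2000 bp from its centre. Genes came from GENCODE release 44 lifted to hg19. Unique 50-mers were sampled every 10 bases in ends and every 100 in the rest. Peaks were named by fixed rules: the highest fold, the highest fold in 1 list only, the smallest p-value, the widest, the outermost of each end, those nearest to the 1 Mb limit, and the listed genes. The members and gene lists were chosen with earlier results of these data known. Shares carry Wilson 95% intervals. Scripts ran in Python 3.11.15 (scipy 1.17.1, numba 0.67.0, pandas 2.3.3, numpy 2.4.6), and the ratios were tested on simulated data. Alternatives changed the width of the ends, the strata, the overlap, the peaks kept and the motif rules.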

Additional observations from a re-analysis of the deposited data

How the results depend on the processing

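Of 64 values under alternative settings 46 kept both their direction and whether their interval left out 1 or, for medians, stayed within the interval of the reported value. A further 5 kept their direction with an interval that now left out 1, 2 kept it with an interval that no longer did, 8 changed direction, and 3 medians moved outside that interval. In strata of GC content of 1 Mb tiles, which replaced the chromosome strata, the density ratio of ends over rest turned to 0.732 in the control and 0.697 in the PDS list. In strata of GC content and coding genes, chosen after seeing the data, it turned to 0.758 and 0.732. Without the 3 densest ends, also chosen after seeing the data, it was 1.43 and 1.502. In GC strata the odds ratio of being in 1 list only was 1.07 for control peaks and 0.797 for PDS peaks, and the latter was 0.739 when a counterpart had to overlap 50% of each of the peaks and 1.38 when a counterpart within 1 kb was accepted. The odds ratio of a G4 motif in PDS peaks was 1.33 in ends of 0.5 Mb and 1.16 in strata of GC around the peak, and neither interval left out 1. That of the consensus in PDS peaks was 1.27 in the same strata, and when searched over whole peaks it was 0.966 in the PDS and 0.885 in the control list. Gene starts with a peak within 5 kb gave 1.19 and 1.18. The median percentile of end peaks was 62.8 by fold in control ends of 0.5 Mb and, ranked by p-value, 53.3 in the control and 53.5 in the PDS list. The cause of these shifts was not tested. No paired analysis was possible because the replicates of a condition were merged into 1 peak list, and for the same reason no replicate could be left out. Depth per sample is unknown, neighbouring peaks are not independent, and the intervals cover counting error only.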
